A study of Mus musculus with 12 samples.

Results

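The genes described here act in the making of a crosslinked fibre from procollagen, as enzymes, an enhancer of an enzyme and a chaperone. The set was fixed by name and holds 9 genes, the lysyl oxidases Lox, Loxl1, Loxl2, Loxl3 and Loxl4, the procollagen processing genes Bmp1, Pcolce and Adamts2, and the chaperone gene Serpinh1. The rule that names them uses no measured value, but earlier results of these data were known when the set was chosen. All 9 are listed among the 43280 entries of the table that holds Control and 2MUT, and 8 among the 23930 entries of the table of the 2-HG experiment, where Loxl2 was not analysed. Of these, 8 passed the filter on low values in each experiment, all but Loxl2.

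RNA-seq had been carried out on MEF cells, fibroblasts taken from C57BL/6 mouse embryos at embryonic day 13.5 and immortalized by passaging, in 4 groups of 3 libraries. 2MUT cells stably expressed a cancer-associated mutant of human IDH2 with a FLAG tag from a retrovirus, and Control cells held the vector without an insert. Both had been selected with puromycin, and neither was treated further. Whether they were pools or clones is not stated. In the other experiment, MEF cells without a vector named in the labels were kept for 24 h with 300 μM of octyl-(R)-2HG, a membrane-permeant form of 2-hydroxyglutarate (2-HG(+)), or with DMSO according to the labels (2-HG(-)). The 2MUT comparison asked what the mutant changed against the empty vector, and the 2-HG comparison what its product changed when added from outside. None of the groups expressed wild-type IDH2 from a vector, so an effect of the mutation cannot be told apart from one of added IDH2. Whether the 3 libraries of a group came from separate cultures is not stated, so p-values measure the spread between libraries, which may be technical.

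Collagen is made as procollagen in the endoplasmic reticulum, where prolyl and lysyl residues are hydroxylated and where Serpinh1 (Hsp47) binds the folded triple helix. After secretion, Adamts2 removes the N-terminal propeptide and Bmp1 the C-terminal propeptide, and Pcolce binds procollagen and enhances cleavage by Bmp1. Lysyl oxidases then oxidize lysines of collagen and elastin to aldehydes, from which the covalent crosslinks of the matrix form, and fibroblasts are their main source in connective tissue. The mutant IDH2 converts 2-oxoglutarate into 2-HG, and the collagen prolyl and lysyl hydroxylases use 2-oxoglutarate as a cosubstrate, whereas lysyl oxidases are copper-dependent amine oxidases that do not.

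The RefSeq promoter table for GRCm38.p6 matched 4 of the 9 members, and these 4 promoters are shown, among them those of Pcolce and Adamts2, whose changes differed most between the experiments. The sequences are the 250 bases before the start given by RefSeq, in the direction of transcription. Capitals mark matches on either strand to GGGCGG (the GC box) and to ACGTG or GCGTG (cores of the hypoxia response element). GAANNTTC, a pair of heat shock element units, and CCAAT were searched as well. The Loxl4 sequence lies on the reverse strand at chr19:42612807-42613056, Pcolce on the reverse strand at chr5:137611405-137611654, Adamts2 on the forward strand at chr11:50601835-50602084 and Serpinh1 on the reverse strand at chr7:99353240-99353489. The start used for Pcolce lies within the span that GENCODE gives the gene, downstream of its outermost start, so this window precedes only 1 of its starts.
Loxl4: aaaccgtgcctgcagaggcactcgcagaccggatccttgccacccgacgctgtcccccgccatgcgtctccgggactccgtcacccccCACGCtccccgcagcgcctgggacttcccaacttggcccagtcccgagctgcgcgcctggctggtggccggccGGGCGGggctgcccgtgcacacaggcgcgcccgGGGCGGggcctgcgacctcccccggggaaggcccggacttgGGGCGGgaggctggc
Pcolce: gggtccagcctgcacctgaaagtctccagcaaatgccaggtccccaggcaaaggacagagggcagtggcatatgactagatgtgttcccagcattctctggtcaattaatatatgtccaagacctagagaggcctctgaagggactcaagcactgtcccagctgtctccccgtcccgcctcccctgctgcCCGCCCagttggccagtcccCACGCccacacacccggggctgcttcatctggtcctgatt
Adamts2: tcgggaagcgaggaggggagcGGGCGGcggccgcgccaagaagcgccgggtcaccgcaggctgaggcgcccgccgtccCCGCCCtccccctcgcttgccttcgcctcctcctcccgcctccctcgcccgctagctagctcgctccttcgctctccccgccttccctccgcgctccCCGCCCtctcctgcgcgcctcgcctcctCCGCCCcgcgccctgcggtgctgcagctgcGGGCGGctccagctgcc
Serpinh1: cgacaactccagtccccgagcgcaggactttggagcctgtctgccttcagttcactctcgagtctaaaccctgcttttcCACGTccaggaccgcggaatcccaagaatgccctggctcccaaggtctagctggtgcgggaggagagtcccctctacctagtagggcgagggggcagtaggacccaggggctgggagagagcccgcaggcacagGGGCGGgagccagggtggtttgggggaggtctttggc

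The GC box was found in each of the 4 sequences, at 5 places in Adamts2, 3 in Loxl4 and 1 each in Pcolce and Serpinh1, and in 32.7% of 32851 promoters of the same length. GCGTG was found at 1 place in Loxl4 and 1 in Pcolce (28.2% of promoters), and ACGTG at 1 place in Serpinh1 (16.6% of promoters). The heat shock pair (6.69% of promoters) and CCAAT (33.8% of promoters) were in none of the 4. GC content was 78.0% in Adamts2, 76.0% in Loxl4, 63.6% in Serpinh1 and 58.8% in Pcolce, against a mean of 53.2% over all promoters. These are matches of letters in a short window and say nothing of binding.

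The libraries had between 6472439 and 7313602 reads on genes in the 2MUT experiment and between 14959318 and 18363768 in the 2-HG experiment, so that 3 reads, the floor used here, stood for 0.41 to 0.464 RPM and 0.163 to 0.201 RPM, respectively. RPM gives a gene's reads scaled to 1000000 per library, counted on 1 short amplified target per gene. Levels of different genes are therefore not compared, apart from the marker sums that follow, where genes with more reads weigh more. The fibroblast label was checked with 8 markers. Their summed level was 10831 to 11922 RPM in Control, 7514 to 8118 RPM in 2MUT, 19698 to 21235 RPM in 2-HG(-) and 13530 to 14755 RPM in 2-HG(+), without S100a4 in the 2-HG table, and was lower in every 2MUT and every 2-HG(+) library than in its controls. Col1a1, Col1a2 and Vim make up most of this sum, and 2 of these are fibrillar collagen chains, a list described below. Vim fell in 2MUT from 3110 to 1265 RPM (limma adjusted p = 4.06e-06) and had means of 2726 and 2162 RPM in 2-HG(-) and 2-HG(+) (limma adjusted p = 0.120). Pdgfrb fell in 2MUT from 182 to 151 RPM (limma adjusted p = 0.0486) and with 2-HG from 307 to 106 RPM (limma adjusted p = 3.28e-06). Single markers did not all follow the sum. Thy1 fell in 2MUT from 80.4 to 24.2 RPM but rose with 2-HG from 2.76 to 5.23 RPM (log2 fold change 0.71, limma adjusted p = 0.0136), and Pdgfra had means of 372 and 458 RPM in Control and 2MUT (limma adjusted p = 0.0618) but fell with 2-HG from 80.5 to 30.7 RPM. Fap was at 2 reads or fewer in every library, and S100a4 likewise in Control and 2MUT. Epithelial markers summed to at most 0.878 RPM and endothelial markers to at most 2.94 RPM in any library, and muscle markers to at most 3.59 RPM. Of the cartilage and bone markers, Sox9 alone was above 1 RPM, and it fell in 2MUT from 297 to 186 RPM (limma adjusted p = 0.00248) and was 128 RPM in both groups of the 2-HG experiment. The adipocyte marker Fabp4 had means of 57.5 and 47.6 RPM in Control and 2MUT (limma adjusted p = 0.112) and fell with 2-HG from 6.79 to 2.79 RPM (limma adjusted p = 0.00242). Cd68, of the leukocyte markers, was 9.25 and 6.62 RPM (limma adjusted p = 0.191) and fell with 2-HG from 12.4 to 8.46 RPM (limma adjusted p = 0.0214), while Ptprc was at 1 read or fewer in every library. The part of these marker shifts in the results below was not tested, and in bulk samples fewer cells of a type cannot be told apart from less RNA per cell.

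In 2MUT, Loxl4 and Adamts2 were higher than in Control by 1.45-fold and 1.52-fold and Loxl3 and Serpinh1 lower by 38.0% and 25.5%, so that 4 of 8 tested members (50%) passed an adjusted p-value of 0.05 (limma on log2(RPM + 1), 6 libraries), against 33.8% of all 11065 genes tested. By direction, 16.5% of all genes were higher and 17.3% lower. With 2-HG, 5 of 8 members (62.5%) fell, Pcolce by 53.6% and Loxl1, Loxl3, Bmp1 and Adamts2 by 23.1% to 36.7%, against 32.8% of 10384 genes tested that changed and 16.7% that were lower. Of the members, 0 rose with 2-HG, where 16.1% of all genes did, and this count was also 0 at an unadjusted p under 0.05 and with edgeR and DESeq2. The median log2 fold change of the tested members was 0.14 in 2MUT and -0.55 with 2-HG, beside 0.01 and -0.02 over all genes tested. Leaving out 1 library left between 1 and 4 members higher and 1 or 2 lower in 2MUT, and between 4 and 6 lower with 2-HG. The 4 members higher were found without Control replicate 3.

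**Figure D1:**
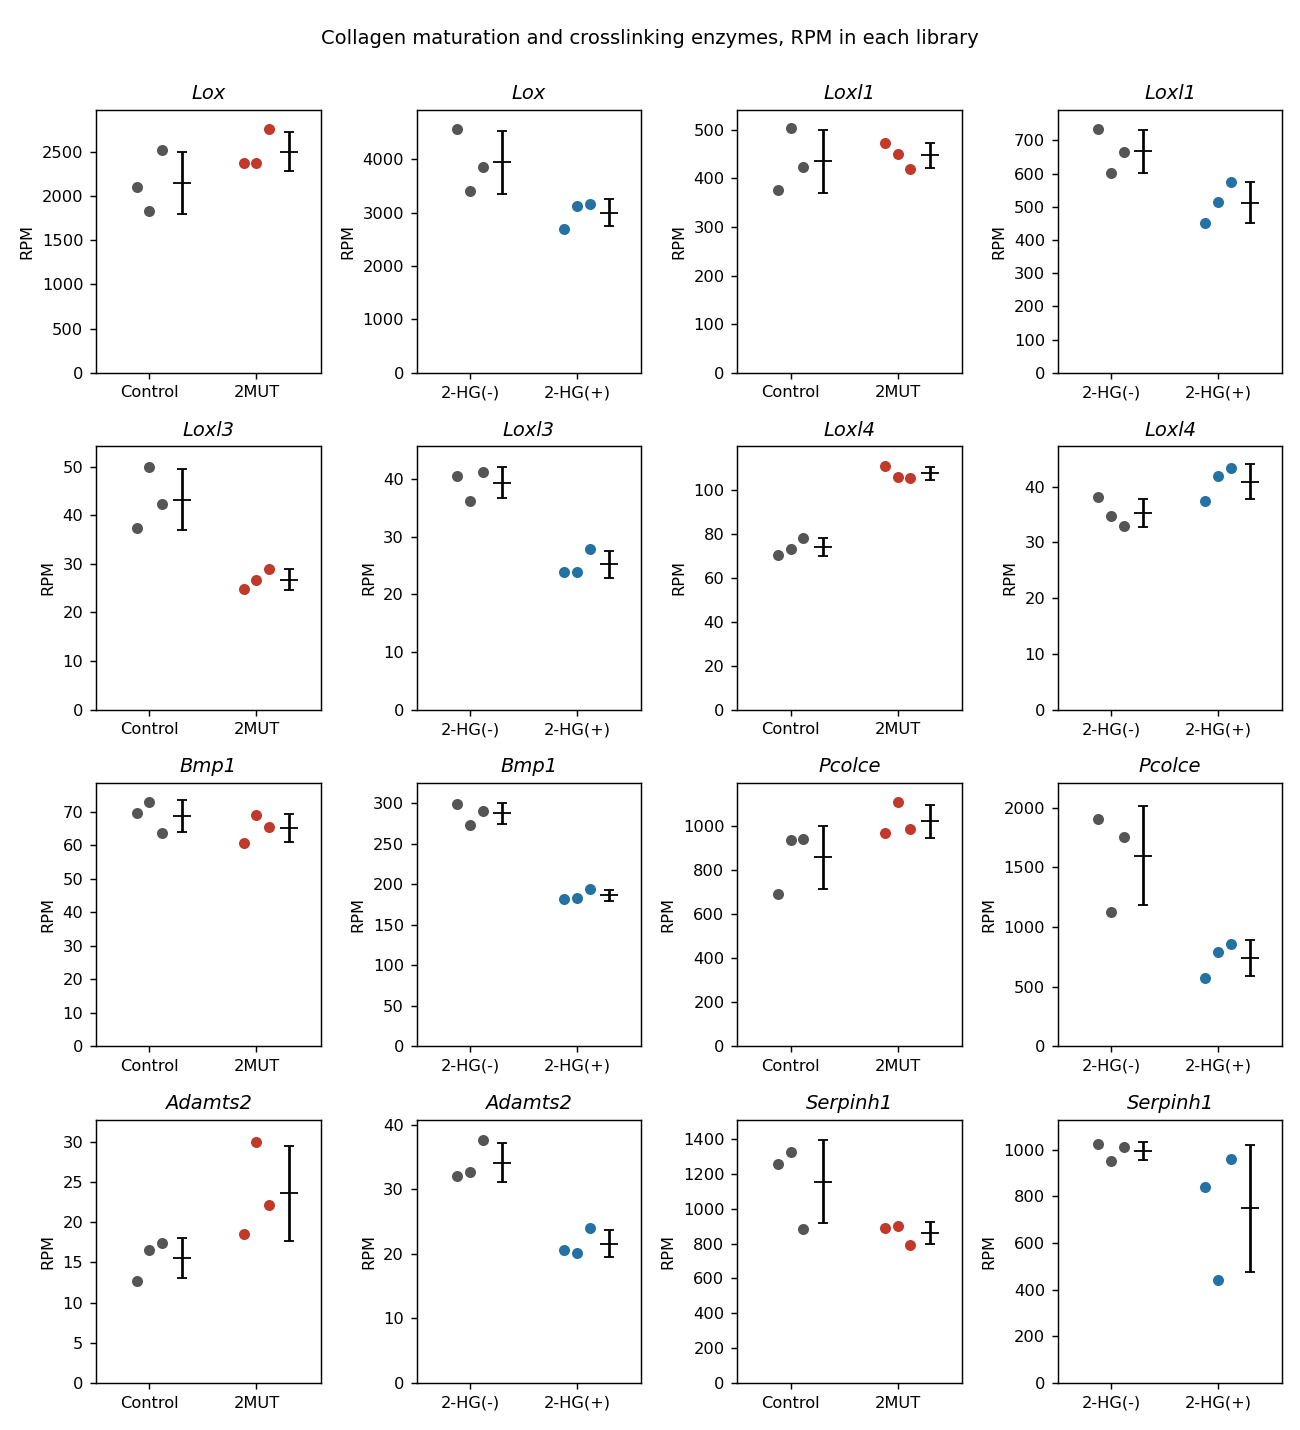
RPM of each of the 8 tested members in the 12 libraries, with 1 point per library and the mean ± SD (n = 3) beside each group. Panels of Control and 2MUT and panels of 2-HG(-) and 2-HG(+) come from separate tables and have their own axes from 0. All 3 2-HG(+) points lie below all 3 2-HG(-) points for 6 members, among them Pcolce (573 to 859 RPM against 1126 to 1909 RPM).

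Lox, the founding lysyl oxidase and a gene on chromosome 18, was measured at 2101, 1828 and 2521 RPM in Control and at 2378, 2375 and 2763 RPM in 2MUT. One Control library lay within the 2MUT range and the others below it. The means of 2150.1 ± 349 and 2505 ± 223 RPM (SD, n = 3) gave a log2 fold change of 0.23 that did not pass the test (limma adjusted p = 0.158). Without Control replicate 3 it passed, at 0.35 (limma adjusted p = 0.0222), while without Control replicate 2 it was 0.12 (limma adjusted p = 0.455). In the 2-HG experiment, Lox was 4557, 3400.0 and 3859.9 RPM in 2-HG(-) and 2702, 3129.7 and 3165 RPM in 2-HG(+). Every 2-HG(+) library was below every 2-HG(-) library. The mean went from 3939 ± 583 to 2999 ± 258 RPM (SD, n = 3). The log2 fold change of -0.39 was just short of the threshold (limma adjusted p = 0.0555) and passed without 2-HG(-) replicate 2 (-0.49, limma adjusted p = 0.0245) and with edgeR (adjusted p = 0.0459) and DESeq2 (adjusted p = 0.0134). It did not pass in the other 5 fits that left out 1 library, down to -0.28 without 2-HG(-) replicate 1 (limma adjusted p = 0.177), or in the other 7 settings, among them quantile normalization (-0.30, limma adjusted p = 0.124).

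Loxl1, the lysyl oxidase linked to elastic fibre upkeep, is at chr9:58287738-58313186 on the reverse strand. It was 377, 504 and 424 RPM in Control and 472, 450.0 and 419 RPM in 2MUT, with the 2MUT libraries inside the Control range. The log2 fold change was 0.05 (limma adjusted p = 0.773, 95% interval -0.20 to 0.29). With 2-HG it went from 734, 602 and 665 RPM to 450.0, 514 and 574 RPM. The groups did not overlap, and Loxl1 fell by 0.38 on the log2 scale (limma adjusted p = 0.0347), from 667 ± 65.9 to 513 ± 62.1 RPM (SD, n = 3). This call was lost without 2-HG(-) replicate 1, 2-HG(-) replicate 3, 2-HG(+) replicate 1 or 2-HG(+) replicate 2, with log2 fold changes of -0.31, -0.38, -0.29 and -0.39 and limma adjusted p-values of 0.114, 0.0974, 0.0921 and 0.0815. It was also lost with no filter on low values (limma adjusted p = 0.180), an unmoderated test (adjusted p = 0.121) and a replicate block (limma adjusted p = 0.0862).

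Loxl2, at chr14:69609068-69695834 on the forward strand, was at 0.148, 0.142 and 0 RPM in Control and at 0.309, 0 and 0 RPM in 2MUT. These are 2 reads or fewer in each library, under the floor of 3 reads, so no fold change is given.

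Loxl3, a lysyl oxidase of the subfamily with scavenger receptor domains, is at chr6:83034173-83052562 on the forward strand and was the member that fell in both experiments. Its level was 37.4, 49.9 and 42.3 RPM in Control against 24.7, 26.6 and 28.9 RPM in 2MUT. No library of 2MUT reached the lowest of Control. The means were 43.2 ± 6.26 and 26.8 ± 2.09 RPM (SD, n = 3), and Loxl3 fell by 0.66 on the log2 scale (limma adjusted p = 0.00455). With 2-HG, 40.7, 36.3 and 41.4 RPM became 23.9, 23.9 and 27.97 RPM, again without overlap. The change was -0.62 on the log2 scale (limma adjusted p = 0.00309), from 39.4 ± 2.75 to 25.3 ± 2.33 RPM (SD, n = 3). Both calls were kept in all 6 fits that left out 1 library. GENCODE M21 places 535 exonic bases of Loxl3 within exons of Htra2, a gene of a mitochondrial protease on the opposite strand, and whether the counting used strand is not given in the sources used here, so reads there cannot be told apart. Htra2 itself went from 112 to 51.7 RPM in 2MUT (log2 fold change -1.10, limma adjusted p = 3.02e-05) and did not pass the test with 2-HG (log2 fold change -0.72, limma adjusted p = 0.564). There, 2-HG(+) replicate 2 was at 1.92 RPM for Htra2. The other 2-HG(+) libraries were at 48.0 and 44.6 RPM for Htra2 and 2-HG(-) at 25.98 to 34.0 RPM. In 2-HG(+) replicate 2, Loxl3 was level with another replicate. The part of shared reads in the Loxl3 values was not tested.

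Loxl4, of the same subfamily, is at chr19:42593982-42612813 on the reverse strand, and its promoter above held 3 GC boxes. It was 70.4, 73.2 and 78.2 RPM in Control and 111, 106 and 105 RPM in 2MUT. All 2MUT libraries were above all Control libraries, and the spread within each group was small. The means were 74.0 ± 3.94 and 107 ± 3.08 RPM (SD, n = 3), and Loxl4 rose by 0.53 on the log2 scale (limma adjusted p = 0.00213), in all 6 fits that left out 1 library as well. In the 2-HG experiment, values of 38.1, 34.8 and 33.0 RPM stood beside 37.4, 41.8 and 43.4 RPM. The lowest 2-HG(+) library was inside the 2-HG(-) range, and the log2 fold change of 0.21 did not pass (limma adjusted p = 0.187, 95% interval -0.04 to 0.46). Loxl4 was the only tested member whose mean was higher in 2-HG(+).

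Bmp1, the procollagen C-proteinase that also cleaves the propeptide of Lox, is at chr14:70474558-70520234 on the reverse strand. In Control it was 69.5, 73.1 and 63.6 RPM and in 2MUT 60.7, 69.0 and 65.6 RPM, with overlapping groups and a log2 fold change of -0.08 (limma adjusted p = 0.630, 95% interval -0.32 to 0.17). In 2-HG(-) it was 299, 273 and 290.2 RPM and in 2-HG(+) 181, 183 and 194 RPM. The 2-HG(+) libraries lay close together and well below the others. Bmp1 fell by 0.62 on the log2 scale, from 287 ± 12.9 to 186 ± 6.92 RPM (SD, n = 3), with the smallest adjusted p-value of the members in that comparison (limma adjusted p = 0.000671).

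Pcolce, the enhancer of Bmp1, is at chr5:137605103-137613784 on the reverse strand. It was 691, 936 and 941 RPM in Control and 967, 1105 and 987 RPM in 2MUT. The groups did not overlap, but the lowest 2MUT library was close to the highest of Control. The means were 856 ± 143 and 1019.7 ± 74.8 RPM (SD, n = 3), and the log2 fold change of 0.26 did not pass (limma adjusted p = 0.117), although it did without Control replicate 3 (0.34, limma adjusted p = 0.0436) and with quantile normalization (0.35, limma adjusted p = 0.0463), while without Control replicate 1 it was 0.12 (limma adjusted p = 0.335). With 2-HG, Pcolce went from 1909, 1126 and 1752 RPM to 573, 790.1 and 859 RPM. It fell by 1.09 on the log2 scale (limma adjusted p = 0.0036), from 1596 ± 414 to 741 ± 149 RPM (SD, n = 3), and by 0.92 to 1.32 when 1 library was left out, with the call kept each time. In the fit with no filter on low values and in an unmoderated test it did not pass (adjusted p = 0.103 and 0.0752). Pcolce shares 112 exonic bases with Fbxo24 on the same strand, which was too low to be tested in either experiment.

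Adamts2, the procollagen N-proteinase, is at chr11:50602084-50807573 on the forward strand, and its promoter was the richest in GC boxes of the 4 shown. Its level was 12.7, 16.5 and 17.4 RPM in Control and 18.5, 30.01 and 22.2 RPM in 2MUT. The groups did not overlap, and the 2MUT libraries were the more spread. Adamts2 rose by 0.56 on the log2 scale, from 15.5 ± 2.47 to 23.6 ± 5.87 RPM (SD, n = 3), just past the threshold (limma adjusted p = 0.0481). Without Control replicate 1, Control replicate 2, 2MUT replicate 2 or 2MUT replicate 3 it no longer passed, with log2 fold changes of 0.43, 0.60, 0.37 and 0.59 and limma adjusted p-values of 0.148, 0.0694, 0.197 and 0.0929. The rise did not pass in an unmoderated test either (adjusted p = 0.175). With 2-HG the direction was the opposite. Values of 32.1, 32.7 and 37.6 RPM became 20.6, 20.2 and 24.0 RPM without overlap, and Adamts2 fell by 0.64 on the log2 scale (limma adjusted p = 0.00356), from 34.1 ± 3.02 to 21.6 ± 2.07 RPM (SD, n = 3).

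Serpinh1, the collagen chaperone, is at chr7:99345376-99353239 on the reverse strand. It was 1259.8, 1327 and 883 RPM in Control and 889.9, 903 and 790.25 RPM in 2MUT, so that Control replicate 3 lay within the range of 2MUT. Serpinh1 fell by 0.40 on the log2 scale, from 1156 ± 239 to 861 ± 61.8 RPM (SD, n = 3), at a limma adjusted p = 0.0425. Among the fits that left out 1 library, the one without Control replicate 3 kept the call (-0.59, limma adjusted p = 0.000389), while those without Control replicate 1, Control replicate 2, 2MUT replicate 1, 2MUT replicate 2 and 2MUT replicate 3 lost it (-0.33, -0.29, -0.43, -0.44 and -0.34, with limma adjusted p-values of 0.133, 0.143, 0.0832, 0.0747 and 0.142). The call was also lost with quantile normalization (-0.37, limma adjusted p = 0.0553) and in an unmoderated test (adjusted p = 0.216). In the 2-HG experiment, 1025, 951 and 1009 RPM stood beside 841, 442 and 961 RPM. One 2-HG(+) library was far below the other two, and another lay inside the 2-HG(-) range. The log2 fold change of -0.49 did not pass (limma adjusted p = 0.151), and it was -0.15 without 2-HG(+) replicate 2 and -0.70, past the threshold (limma adjusted p = 0.0442), without 2-HG(+) replicate 3.

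Counted by library, 3 members (Loxl4, Pcolce and Adamts2) had every 2MUT library above every Control library, where 23.5% of all genes tested did, and 1 (Loxl3) had every one below, where 24% did (47.5% in either direction). With 2-HG, 6 members (Lox, Loxl1, Loxl3, Bmp1, Pcolce and Adamts2) had every 2-HG(+) library below every 2-HG(-) library, where 24.1% of all genes did, and 0 had every one above, where 22.2% did (46.3% in either direction).

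**Figure D2:**
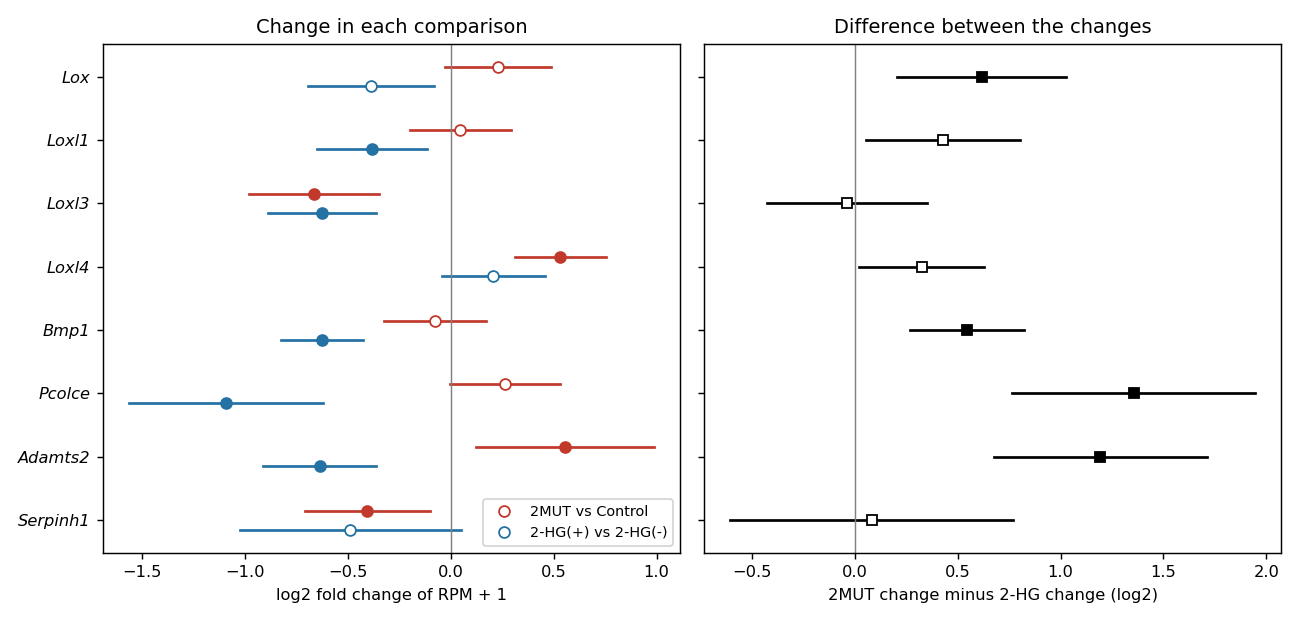
Left, log2 fold change of RPM + 1 of each member with its 95% interval, in red for 2MUT against Control and in blue for 2-HG(+) against 2-HG(-), with filled symbols for an adjusted p under 0.05. Right, the 2MUT change minus the 2-HG change. Pcolce (1.35) and Adamts2 (1.19) stand furthest to the right, and Loxl3 (-0.04) and Serpinh1 (0.08) lie at the zero line.

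Whether the changes in the experiments differed was tested as the change in 2MUT minus the change with 2-HG, over the 12 libraries and 9594 genes tested in both. Of the 8 members, 4 differed, against 39.4% of those genes, and in all 4 the 2MUT change was the higher, as it was in 19.9% of all genes, with the lower in 19.5%. The difference was 1.35 for Pcolce (SE 0.28, limma adjusted p = 0.00157) and 1.19 for Adamts2 (SE 0.24, limma adjusted p = 0.00152). It was 0.62 for Lox (SE 0.19, limma adjusted p = 0.0209) and 0.55 for Bmp1 (SE 0.13, limma adjusted p = 0.00429). All 3 procollagen processing members were among the 4. For Lox the call was lost without Control replicate 2 (0.51, adjusted p = 0.0524), 2MUT replicate 3 (0.54, adjusted p = 0.0555) and 2-HG(-) replicate 1 (0.51, adjusted p = 0.0535), and with quantile normalization (0.46, adjusted p = 0.116), no filter on low values (adjusted p = 0.0952) and the unmoderated test (adjusted p = 0.0515). With edgeR 5 members differed and with DESeq2 6.

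The other members did not pass that test with limma. Loxl1 differed by 0.43 (limma adjusted p = 0.0646, 95% interval 0.06 to 0.80 before adjustment), and passed without Control replicate 2 (0.54), 2-HG(-) replicate 2 (0.50) or 2-HG(+) replicate 3 (0.51), with limma adjusted p-values of 0.0218, 0.0420 and 0.0363, and with edgeR (adjusted p = 0.0490) and DESeq2 (adjusted p = 0.0211). Loxl4 differed by 0.33 (limma adjusted p = 0.0821) and passed with DESeq2 (adjusted p = 0.0316), the unmoderated test (adjusted p = 0.0355) and no filter (adjusted p = 0.0494). For Loxl3 the difference was -0.04 (limma adjusted p = 0.878), with an interval from -0.43 to 0.35 that leaves room for either change to be the larger. For Serpinh1 it was 0.08 (limma adjusted p = 0.861), with a wide interval from -0.61 to 0.77.

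**Figure D3:**
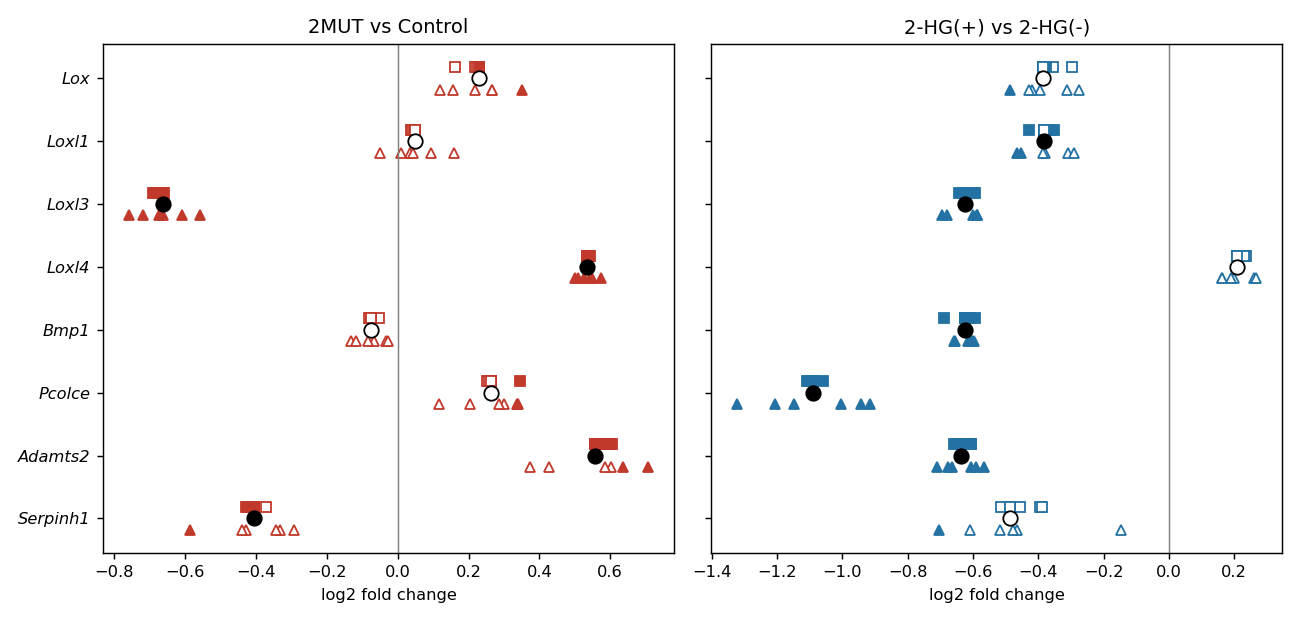
Log2 fold changes of the members in each comparison as reported (circles), under 9 other settings (squares) and with 1 library left out in turn (triangles), filled where the adjusted p was under 0.05. Loxl3 and Loxl4 in 2MUT and Loxl3, Bmp1 and Adamts2 with 2-HG are filled throughout. Lox, Pcolce, Adamts2 and Serpinh1 in 2MUT and Lox, Loxl1, Pcolce and Serpinh1 with 2-HG are a mixture.

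Across the 12 libraries, with each table centred on its own mean, members varied together to different degrees, given here as a description of libraries that share the same group differences. Pearson's r was 0.90 between Loxl1 and Pcolce, 0.84 between Bmp1 and Pcolce and 0.80 between Lox and Pcolce. Loxl3 and Loxl4 varied in opposite directions, at -0.80. Serpinh1 had an r of -0.05 with Lox. Of 6730 genes of at least 10 RPM in each table, those most like Lox included St6gal1, a sialyltransferase gene (r = 0.95), and Pcnx (r = 0.93).

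Collagen hydroxylation and glycosylation take place in the endoplasmic reticulum before the secreted enzymes act. In 2MUT, 9 of 16 tested genes rose and 1 fell, where 16.5% of all genes were higher and 17.3% lower, with a median log2 fold change of 0.39. Crtap, a subunit of the prolyl 3-hydroxylase complex, rose from 225 to 568 RPM (log2 fold change 1.33, limma adjusted p = 4.37e-06), Plod2, the lysyl hydroxylase of the collagen telopeptides, from 272 to 524 RPM (0.97, limma adjusted p = 0.000494) and P4ha2, a prolyl 4-hydroxylase subunit, from 568 to 1046 RPM (0.88, limma adjusted p = 9.99e-05). P3h2, a prolyl 3-hydroxylase listed as Leprel1, fell from 438 to 136 RPM (-1.62, limma adjusted p = 0.000156). With 2-HG, 1 of 16 rose and 6 fell, where 16.1% of all genes were higher and 16.7% lower, with a median of -0.16. P3h2 fell from 41.9 to 12.5 RPM (-1.67, limma adjusted p = 9.29e-06), P4ha3 from 43.0 to 13.6 RPM (-1.60, limma adjusted p = 1.90e-05) and Plod1 from 178 to 116 RPM (-0.63, limma adjusted p = 0.00782). P4ha2 was the gene that rose, from 203 to 264 RPM (0.38, limma adjusted p = 0.0207), and it no longer passed without 2-HG(-) replicate 2, 2-HG(-) replicate 3, 2-HG(+) replicate 2 or 2-HG(+) replicate 3, each of which left 0 genes of the list higher, nor with no filter, quantile normalization, the unmoderated test or the replicate block. The difference between the experiments was not tested for these lists.

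Among other genes of procollagen processing and folding, 3 of 7 tested rose and 1 fell in 2MUT, beside 16.5% and 17.3% of all genes. Pcolce2, the relative of Pcolce, rose from 8.25 to 20.7 RPM (log2 fold change 1.27, limma adjusted p = 0.000885), Furin, the convertase that activates Bmp1 and Adamts proteases, from 119 to 230 RPM (0.94, limma adjusted p = 0.000657) and Sparc, a collagen-binding matrix protein, from 4588 to 8009.8 RPM (0.81, limma adjusted p = 0.000172). Adamts14, a relative of Adamts2, fell from 56.4 to 36.8 RPM (-0.61, limma adjusted p = 0.00427). With 2-HG, 2 of 7 rose (1 of 12 with no filter) and 1 fell (2 of 7 with DESeq2), beside 16.1% and 16.7% of all genes. Pcolce2 rose from 11.7 to 24.6 RPM (1.00, limma adjusted p = 0.000509) where Pcolce fell, and Adamts14 rose from 97.8 to 136 RPM (0.47, limma adjusted p = 0.00792) where Adamts2 fell. Sparc fell from 10625 to 7179.6 RPM (-0.57, limma adjusted p = 0.0273), a call that was lost without 2-HG(-) replicate 3, 2-HG(+) replicate 2 or 2-HG(+) replicate 3, each of which left 0 genes of the list lower, and with no filter, median-of-ratios scaling, quantile normalization, the unmoderated test and the replicate block.

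**Figure D4:**
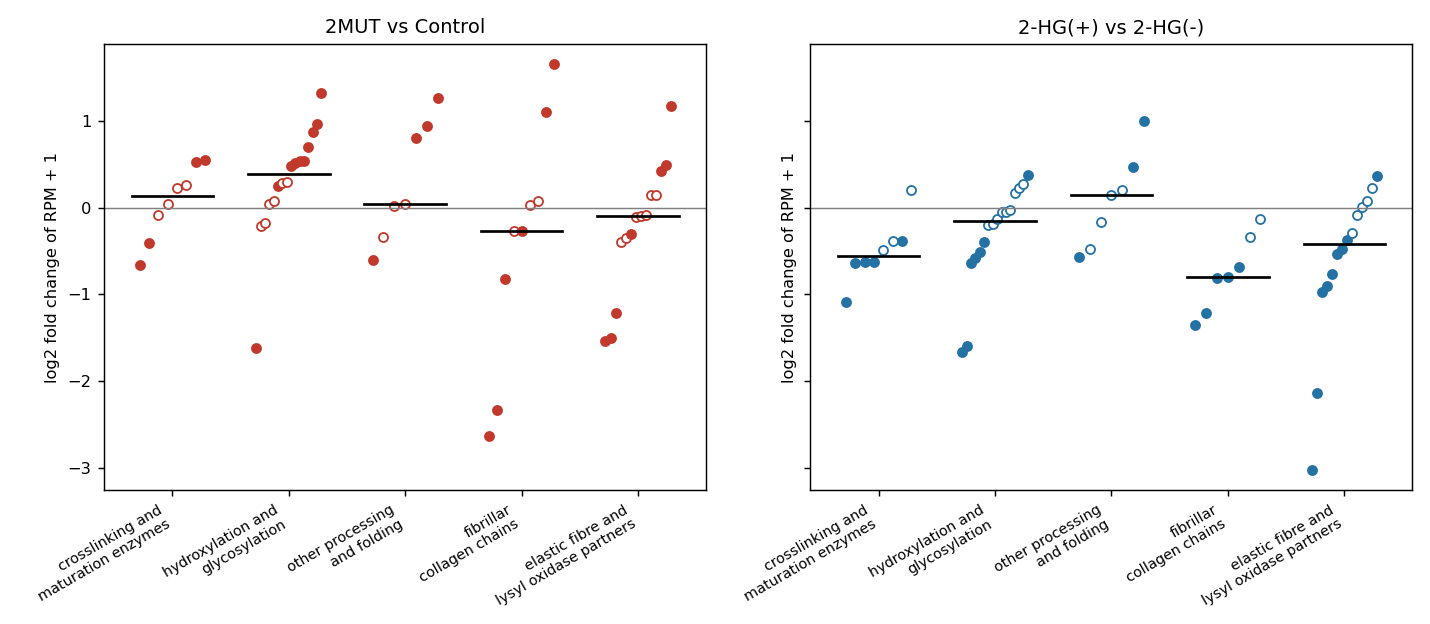
Log2 fold changes of RPM + 1 of the tested genes of the members and of 4 neighbouring lists, in 2MUT against Control (left) and 2-HG(+) against 2-HG(-) (right), with 1 point per gene, filled where the adjusted p was under 0.05, and a bar at the median of each list. The hydroxylation and glycosylation list has its median at 0.39 on the left and -0.16 on the right, and the members at 0.14 and -0.55.

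Of the substrates, 2 of 9 fibrillar collagen chains tested were higher and 4 lower in 2MUT, with a median log2 fold change of -0.26, and 5 of 7 were lower with 2-HG, with a median of -0.80, beside 16.5% of all genes higher and 17.3% lower in 2MUT and 16.7% lower with 2-HG. The count of higher chains in 2MUT was 0 of 7 with a filter at a mean of 10 RPM and 1 with the unmoderated test. In 2MUT, Col27a1 rose from 3.85 to 14.3 RPM (1.66, limma adjusted p = 6.62e-05), and Col11a1 (-2.64), Col3a1 (-2.33) and Col1a2 (-0.82) fell, and with 2-HG the largest falls were in Col3a1 (-1.35), Col11a1 (-1.21) and Col1a2 (-0.81). With 2-HG 0 chains rose, also at an unadjusted p under 0.05 and with edgeR and DESeq2. Of the elastic fibre genes and lysyl oxidase partners, 3 of 14 rose and 4 fell in 2MUT, and 1 rose and 8 fell with 2-HG, with medians of -0.10 and -0.42, beside 16.5% and 17.3% of all genes in 2MUT and 16.1% and 16.7% with 2-HG. With a filter at a mean of 10 RPM, 2 of 11 fell in 2MUT. Fbln5, a fibulin that tethers Loxl1 to elastin, rose from 73.8 to 169 RPM in 2MUT (log2 fold change 1.18, limma adjusted p = 1.35e-05). Fbln2 rose from 884 to 1245 RPM (0.49, limma adjusted p = 0.00138), and Fn1, fibronectin, from 3967 to 5329 RPM (0.43, limma adjusted p = 0.0111), while Ltbp1, a carrier of latent TGF-beta, fell from 256 to 207 RPM (-0.30, limma adjusted p = 0.0260). Postn, periostin, which binds Bmp1, fell in both experiments, from 127 to 44.5 RPM in 2MUT (-1.50, limma adjusted p = 3.02e-05) and from 233 to 27.9 RPM with 2-HG (-3.03, limma adjusted p = 6.05e-07). Ltbp2 fell with 2-HG from 140.2 to 33.0 RPM (-2.14, limma adjusted p = 0.000288), as did Mfap2, a microfibril protein, from 88.1 to 44.1 RPM (-0.98, limma adjusted p = 0.000182). Tgm2, the transglutaminase that crosslinks matrix proteins by another chemistry, fell from 11.9 to 4.45 RPM in 2MUT (-1.22, limma adjusted p = 0.00242) and rose from 44.6 to 57.8 RPM with 2-HG (0.37, limma adjusted p = 0.0163), the rise being lost without 2-HG(+) replicate 2 or 2-HG(+) replicate 3, which left 0 genes of the list higher, and with the replicate block.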

How the data were processed

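RNA-seq values of MEF cells, 12 libraries in 4 groups of 3, were analysed. The authors aligned Ion AmpliSeq reads with TMAP to the AmpliSeq mouse transcriptome, obtained reads per gene from the AmpliSeqRNA plug-in, and deposited them as RPM, with 1 table per experiment. The genome build behind these targets is not given in the sources used here. Members and lists were chosen with earlier results of these data known. RPM + 1 was log2-transformed and tested in R 4.3.3 with limma 3.58.1 (trend option), keeping genes whose mean over a comparison reached 1 RPM, with Benjamini-Hochberg adjustment over all genes tested and a threshold of 0.05. Fold changes on this scale understate those of low genes. Tables were tested separately, since each was normalized on its own entries, and no level was compared across them. The difference between the changes was a contrast over 12 libraries. Named genes were all members and, for each list and comparison, up to 3 called genes with the largest rise and 3 with the largest fall, whose higher group averaged 10 RPM or more (Col27a1, Pcolce2 and Tgm2 in the 2MUT comparison reached this only in the group where they were high) and without overlap between groups, and the 3 genes most like Lox by Pearson's r, of which 1 is not reported here. RPM converted to whole reads in 100% of values (tolerance 0.05 reads), and these reads were tested with edgeR 4.0.16 (1818 genes higher and 1947 lower in 2MUT, 1794 and 1752 with 2-HG) and with DESeq2 1.42.0. Further alternatives were an added value of 0.1 RPM, no filter, a filter at 10 RPM, median-of-ratios scaling, quantile normalization, an unmoderated test, a replicate block and each library left out. The fitting code was checked on simulated reads, which is no support for the changes reported here. Positions and exons are from GENCODE M21 on GRCm38, and promoters from RefSeq. Older symbols of the lists were matched through RefSeq synonyms. The plots were drawn with matplotlib 3.10.9.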

Additional observations from a re-analysis of the deposited data

Results flagged for a closer look

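The change in 2MUT and the change with 2-HG differed for 4 members by the test of the difference itself (limma, adjusted over 9594 genes), where 39.4% of all genes did. On the log2 scale the difference, 2MUT change minus 2-HG change, was 0.616 for Lox, 0.547 for Bmp1, 1.35 for Pcolce and 1.19 for Adamts2. The Lox difference was lost without Control replicate 2, 2MUT replicate 3 or 2-HG(-) replicate 1 and in 3 of 9 other settings. Adamts2 passed the threshold in opposite directions in the experiments, while Bmp1 and Pcolce passed with 2-HG and Lox in neither. The experiments differ in agent, time, vector and depth of sequencing, and these cannot be told apart here.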

How the results depend on the processing

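Over 9 other settings and the fits that left out 1 library, the 16 log2 fold changes of members gave 240 values, of which 208 kept direction and side of the threshold, 21 lost the call, 10 gained one and 1 reversed. The 8 differences between the changes gave 168 values, with 147, 6, 8 and 7. With no filter on low values, 4 members were higher in 2MUT and 3 lower with 2-HG, and of all genes 1881 were higher and 1793 lower of 43280 in 2MUT and 941 and 1110 of 23930 with 2-HG; in that fit 57.1% and 24.2% of genes had no residual variance, and Lox and Pcolce passed in 2MUT (limma adjusted p = 0.00214 and 0.0097) while Loxl1 and Pcolce did not with 2-HG. Quantile normalization left 1 member lower in 2MUT, Serpinh1 being lost (limma adjusted p = 0.0553). The unmoderated test gave 1 member higher and 1 lower in 2MUT, 3 lower with 2-HG, and over all genes 1021 higher and 1223 lower in 2MUT and 1098 and 1139 with 2-HG, with Adamts2 and Serpinh1 lost in 2MUT (adjusted p = 0.175 and 0.216) and Loxl1 and Pcolce with 2-HG (adjusted p = 0.121 and 0.0752). With edgeR, the difference for Serpinh1 reversed to -0.010. When 1 library was left out, members higher in 2MUT numbered 1 to 4, members lower in 2MUT 1 to 2, members lower with 2-HG 4 to 6 and members that differed 3 to 5, and over all genes 1271 to 1926 were higher and 1484 to 1880 lower in 2MUT and 1146 to 1745 and 1176 to 1580 with 2-HG. Reversals in those fits were in the Loxl1 change in 2MUT (-0.050 to 0.16) and in the differences for Loxl3 (-0.14 to 0.066) and Serpinh1 (-0.26 to 0.30), none of which passed the test in any fit. The cause of these shifts was not tested. Same-numbered libraries did not deviate together (r of 0.07, 0.03 and 0.03 in the 2MUT experiment and of -0.46, -0.16 and 0.06 in the 2-HG experiment). Among differently numbered libraries, r was 0.48 between 2-HG(+) replicate 1 and 2-HG(-) replicate 2. It was 0.41 between 2-HG(+) replicate 3 and 2-HG(-) replicate 1, and -0.41 between 2-HG(+) replicate 3 and 2-HG(-) replicate 2. With 3 libraries per group these values cannot exclude a pairing. With a replicate block, 3 members were higher and 2 lower in 2MUT and 4 lower with 2-HG. Lox in 2MUT then passed (adjusted p = 0.048) and Loxl1 with 2-HG did not (adjusted p = 0.0862). Over all genes 1217 were higher and 1286 lower with 2-HG, and 4 differences passed. Only 3 libraries per group limit the tests, and at 2 reads or fewer in each library Loxl2 could not be tested.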
